A study of Mus musculus with 6 samples.

Results

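The genes described here build or process the cornified envelope, or lie in the epidermal differentiation complex, the cluster of mouse chromosome 3 that holds many of the envelope's protein genes. They were chosen by name: every small proline-rich (Sprr) and late cornified envelope (Lce) gene, together with Ivl, Lor, Flg, Flg2, Hrnr, Rptn, Cnfn, Tgm1, Tgm3, Tgm5, Ppl, Evpl, Cdsn, Casp14, Krtdap, Sbsn, Calm4, Asprv1, Dmkn and Hopx. Of these, 43 genes had a probe set of their own on the array, among 18193 genes in all. The choice of genes was made with earlier results of these data known. Epithelial cells of the bulge, the stem cell region of the hair follicle, had been taken from vibrissae of mice aged 7 to 8 weeks, embedded in 1% atelocollagen and kept for 6 days in 1 of 2 media. Both media supplied Noggin, FGF-7, FGF-10 and SAG, an agonist of the hedgehog pathway, each at 50 ng/ml. NFFSE medium additionally contained EGF at 50 ng/ml, whereas NFFS medium lacked EGF. There were 3 biological replicates of each medium, each with 1 array. The cells were a bulk isolate of the bulge with stem cells and their neighbors together, the mouse strain of these cultures is not given in the sources used here, and the comparison is between the media alone.

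The cornified envelope is the protein shell that replaces the plasma membrane when a keratinocyte of the epidermis finishes its differentiation. Envoplakin and periplakin form a scaffold under the membrane, involucrin, loricrin, Sprr and Lce proteins are laid onto it, and transglutaminases join them by cross-links. Filaggrin bundles keratin filaments within the cell, and proteases process these proteins in the uppermost layers. In normal skin most of these genes belong to the suprabasal and granular layers, whereas the bulge is a basal compartment. Hopx is also found in hair follicle stem cells. Sprr and Lce3 genes are also known to rise in stressed or wounded epidermis.

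The test called 25 of the 43 genes higher in NFFSE and 1 lower, and 17 were not called (limma, a linear model with moderated variances, adjusted p under 0.05 over all genes). Over all genes, 11.0% were called higher in NFFSE and 15.2% lower. The median log2 difference, NFFSE minus NFFS, was 1.08 over the 43 genes and -0.011 over all genes. A positive difference was seen for 36 of the 43, and for 8959 of all 18193 genes. All 3 NFFSE arrays were above all 3 NFFS arrays for 28 genes, an arrangement found for 18.5% of all genes, and the reverse held for 2, Tgm5 and Hrnr, an arrangement found for 22.0% of all genes. Since these were bulk cultures, more cells of a differentiated type and more RNA in each cell cannot be told apart. Centering each array on its median moved the median of all genes from -0.011 to 0.19 and the shares called over all genes to 16.03% higher and 9.81% lower, and it left the same 25 genes called higher and Tgm5 called lower. In both media 12 of the 43 genes were dim, with a mean log2 signal under 6.06 (the 40th percentile of all genes), and 31 were not. A signal at or under 22.7, the highest value of control probe sets for a transcript that mouse cells do not make, is called background below. Hrnr, Lce1c and Lce1l were at background on all arrays of both media, so their sign and the order of their arrays are not reliable.

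**Figure D1:**
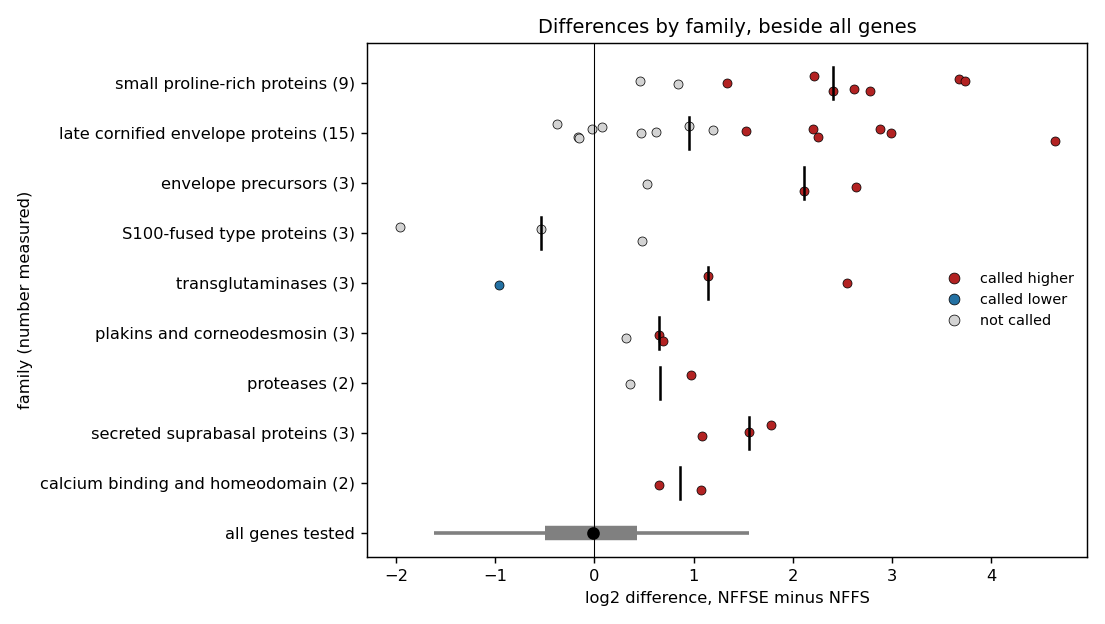
Log2 difference, NFFSE minus NFFS (horizontal axis), of the 43 genes by family, with 1 point per gene colored by its call and a vertical bar at each family's median; the last line gives all 18193 genes, with the thick bar from the 25th to the 75th percentile (-0.49 to 0.43), the thin line from the 5th to the 95th (-1.62 to 1.56) and a dot at the median. The Sprr genes all lie above 0, the late cornified envelope genes spread from -0.38 to 4.64, and Tgm5 is the only gene called lower.

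The Lce genes encode small cysteine-rich proteins that join the envelope late. All 4 measured Lce3 genes were higher in NFFSE, with a median log2 difference of 2.62, whereas the test called 2 of 11 Lce1 genes higher and left 9 uncalled, with a median of 0.48 and 6 of the 11 dim in both media. Among the probe sets read for the 43 genes, that of Lce3f gave the largest log2 difference, although a second probe set of Ivl (4.85) exceeded it, and genes at background in NFFS have only lower bounds. Its signal was 4289, 6369.8 and 5431 in NFFSE and 175, 255 and 215 in NFFS, so that the lowest NFFSE array stood far above the highest NFFS array. The increase was 24.9-fold, and the log2 difference was 4.64 with an SE of 0.18 (adjusted p = 3.4e-07, limma). Lce3c read 2455, 3334 and 2749.8 in NFFSE and 264, 475 and 356 in NFFS, with no overlap, and was 7.96-fold higher (adjusted p = 5.9e-06, limma). For Lce3b the signals were 801, 627 and 746 in NFFSE and 192, 128 and 157 in NFFS, and the increase was 4.60-fold (adjusted p = 2.6e-05, limma). The NFFS arrays of Lce3a scattered, and 2 of them were at background. Its signals were 180.03, 106 and 81.5 in NFFSE and 21.4, 70.8 and 9.52 in NFFS. This was at least 3.49-fold higher in NFFSE, and the log2 difference was 2.25 with an SE of 0.66 (adjusted p = 0.030, limma). That call was lost when NFFSE replicate 1, NFFSE replicate 2, NFFS replicate 1 or NFFS replicate 3 was left out (adjusted p of 0.11, 0.079, 0.085 and 0.081, limma), with a floor under low signals (adjusted p = 0.10, limma) and without the intensity trend (adjusted p = 0.11, limma).

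Among the Lce1 genes, Lce1i had a signal of 159, 160.02 and 185 in NFFSE and 59.2, 36.4 and 89.9 in NFFS and was 2.89-fold higher in NFFSE (adjusted p = 0.0083, limma). The arrays of the media did not overlap, and the NFFS arrays differed by more among themselves than the NFFSE arrays. Lce1m was called higher as well (log2 difference 2.88 ± 0.74, SE; adjusted p = 0.016, limma), but its signals of 11.0, 25.5 and 21.2 in NFFSE and 2.66, 1.75 and 3.17 in NFFS were at background on 2 of 3 NFFSE arrays and on all NFFS arrays, so no fold is given. Its call was lost without NFFSE replicate 2 or 3 and with a floor under low signals (adjusted p of 0.072, 0.059 and 0.52, limma). The other 9, Lce1a1, Lce1a2, Lce1b, Lce1c, Lce1d, Lce1f, Lce1g, Lce1h and Lce1l, had log2 differences from -0.38 to 1.20, and in 8 of them the arrays of the media overlapped. Lce1g was the one without overlap, at 32.8, 26.5 and 35.2 in NFFSE and 15.7, 25.5 and 20.9 in NFFS (adjusted p = 0.40, limma). None of the Lce3 genes was dim in both media. Whether the Lce3 and Lce1 subfamilies differ was not tested.

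Sequences just before the transcription start are shown for genes with large differences and for Sprr2k, a near relative of one of them that was not called, so that related starts can be compared. Each is 200 bases of the RefSeq promoter tables, build GRCm38.p6, written 5′ to 3′ on the gene's strand and ending at the base before the annotated start. Capitals mark matches to TGANTCA, the AP-1 motif, and to TATAAA, the TATA box.
Lce3f, chr3:92992017-92992216, plus strand: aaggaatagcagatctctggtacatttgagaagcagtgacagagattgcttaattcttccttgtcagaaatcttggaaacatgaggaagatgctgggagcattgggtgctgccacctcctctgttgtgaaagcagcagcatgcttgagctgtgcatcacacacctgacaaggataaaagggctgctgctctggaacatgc
Lce3c, chr3:92944286-92944485, plus strand: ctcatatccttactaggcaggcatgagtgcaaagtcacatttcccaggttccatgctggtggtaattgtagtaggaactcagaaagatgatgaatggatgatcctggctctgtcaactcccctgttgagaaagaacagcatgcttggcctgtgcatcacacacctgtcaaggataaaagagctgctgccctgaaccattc
Sprr1b, chr3:92438780-92438979, minus strand: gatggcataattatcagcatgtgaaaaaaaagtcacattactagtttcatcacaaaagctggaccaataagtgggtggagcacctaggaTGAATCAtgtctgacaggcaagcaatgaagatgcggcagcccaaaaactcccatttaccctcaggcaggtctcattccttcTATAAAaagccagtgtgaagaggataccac
Sprr2h, chr3:92385485-92385684, plus strand: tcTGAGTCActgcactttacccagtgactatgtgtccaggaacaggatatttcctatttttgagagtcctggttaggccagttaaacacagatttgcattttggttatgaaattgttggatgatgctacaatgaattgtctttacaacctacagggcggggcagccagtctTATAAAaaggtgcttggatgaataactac
Sprr2k, chr3:92432382-92432581, plus strand: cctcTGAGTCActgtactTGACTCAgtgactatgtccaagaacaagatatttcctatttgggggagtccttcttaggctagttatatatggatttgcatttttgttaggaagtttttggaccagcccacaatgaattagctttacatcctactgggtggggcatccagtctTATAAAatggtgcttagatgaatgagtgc
Ivl, chr3:92573736-92573935, minus strand: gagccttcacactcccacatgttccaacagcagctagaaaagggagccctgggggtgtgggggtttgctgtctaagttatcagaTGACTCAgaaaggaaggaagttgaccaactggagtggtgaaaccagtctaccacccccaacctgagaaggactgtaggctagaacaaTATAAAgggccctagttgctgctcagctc
The Lce3f and Lce3c windows hold no exact match to either motif. Both hold gataaa near the start, which differs from TATAAA in its first letter and was not counted. The windows of these genes are identical at 47.0% of positions aligned without gaps and at 86.7% of the 60 positions nearest the start. The Sprr2h and Sprr2k windows are identical at 72.0% of all positions and 85.0% of the nearest 60, and both carry an AP-1 match at their far end and TATAAA beginning 29 bases before the start. In the Ivl window the AP-1 match begins at position -116 and TATAAA at -29, and in that of Sprr1b they begin at -111 and -30.

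Windows of 39 of the 43 genes were read (all but Sprr2j-ps, Lce1f, Ppl and Evpl), and 4 motifs were searched on both strands. AP-1 motifs, TGANTCA, were found in 14 of the 39 windows and in 5.55% of the windows of 27025 genes. They lay in 7 of 8 Sprr windows and 0 of 14 Lce windows, and also before Ivl, Lor, Flg, Rptn, Sbsn, Dmkn and Krtdap. Of the genes called higher, 10 of 22 windows held one, and of those not called 4 of 16. The TATA box string TATAAA occurred in 17 of 39 windows against 10.6% of all, and in 8 of 8 Sprr and 2 of 14 Lce windows. It was in 10 of 22 windows among genes called higher and 7 of 16 among those not called. Only exact matches were counted, so a window without one may hold a variant of the TATA box. The GRHL motif AACNNGTT was in 1 of 39 (2.86% of all) and the KLF motif GGGNGTG in 5 of 39 (22.2% of all), and no matches of different motifs overlapped. A match describes the letters of a window and is not evidence of binding.

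The Sprr genes encode small proline-rich proteins that serve as cross-bridges between other envelope proteins. The test called 7 of the 9 measured genes higher in NFFSE and left 2 uncalled, and the median log2 difference was 2.41. Sprr1b, a marker of squamous differentiation, gave 12837, 15436 and 14939 in NFFSE and 2550.1, 3218 and 1117 in NFFS. All NFFSE arrays lay close together, whereas NFFS replicate 3 was well below both others of its medium. The increase was 6.86-fold (log2 difference 2.78 ± 0.31, SE; adjusted p = 0.00012, limma). Sprr1a, in the same cluster, showed the same order of arrays in NFFS with 7654, 9708 and 8411 in NFFSE and 3659.8, 4432 and 2382 in NFFS, and was 2.53-fold higher (adjusted p = 0.00074, limma). The methods' t-test, adjusted over all genes, did not call Sprr1a (adjusted p = 0.053).

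Of the 6 measured Sprr2 genes, 5 were higher in NFFSE. Sprr2h had signals of 801, 1415 and 1268 in NFFSE and 101, 108 and 63.3 in NFFS, and was 12.7-fold higher (adjusted p = 8.3e-06, limma). NFFSE replicate 1 was the lowest of its medium and still several times above every NFFS array. Sprr2d, at 133, 224 and 204 in NFFSE and 27.6, 55.2 and 40.2 in NFFS, was 4.63-fold higher (adjusted p = 0.0011, limma). Sprr2f was above background only in NFFSE. It read 87.0, 112 and 93.3 in NFFSE and 16.6, 19.2 and 19.0 in NFFS, at least 4.27-fold higher (adjusted p = 0.00098, limma). The remaining calls were of genes dim in both media, and their NFFS arrays were all at background. Sprr2j-ps, annotated as a pseudogene, gave 76.6, 65.1 and 58.0 in NFFSE and 10.2, 7.11 and 17.4 in NFFS, at least 2.91-fold higher (adjusted p = 0.0036, limma). Sprr2i gave 46.1, 72.2 and 22.8 in NFFSE and 6.58, 1.62 and 3.02 in NFFS, at least 1.86-fold higher (adjusted p = 0.0047, limma), and was not called with a floor under low signals (adjusted p = 0.24, limma). NFFSE replicate 3 of Sprr2i was itself barely above background. Sprr2k, whose window resembles that of Sprr2h, had a log2 difference of 0.46 and Sprr3, a family member best known from the esophagus, one of 0.84 (adjusted p of 0.44 and 0.56, limma), with overlapping arrays in both cases. Sprr2 transcripts are alike in sequence, and the probe set of Sprr2h is of the kind that may bind several transcripts, so signal of one gene may include that of another.

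**Figure D2:**
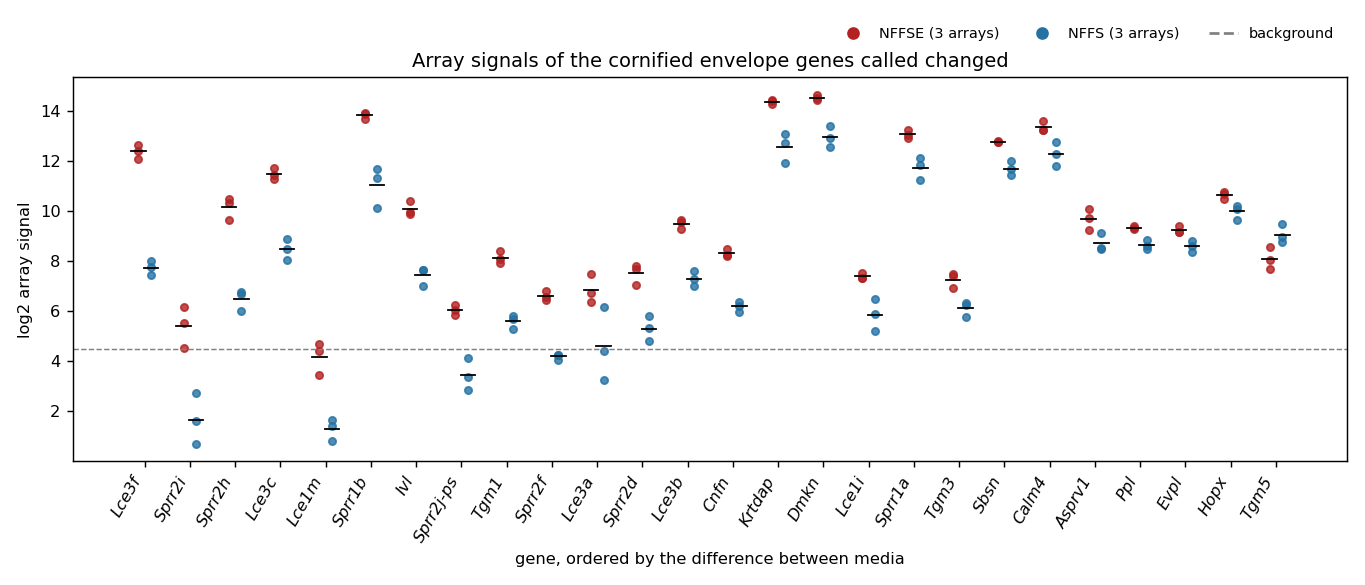
Log2 array signal (vertical axis) of the 26 genes called changed, in order of their log2 difference, with 1 point for each of the 3 NFFSE and 3 NFFS arrays and a bar at each mean; the dashed line is the background. The NFFSE points lie above the NFFS points for the first 25 genes and below them for Tgm5, and the NFFS points of Sprr2i, Lce1m, Sprr2j-ps and Sprr2f lie under the dashed line.

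Involucrin and cornifelin rose, and loricrin did not pass the test. Ivl, an early scaffold protein of the envelope, had a signal of 992, 1328 and 938 in NFFSE and 128, 201 and 199 in NFFS. The lowest NFFSE array was several times the highest NFFS array, and the log2 difference was 2.64 ± 0.21 (SE; adjusted p = 1.7e-05, limma). A second probe set of Ivl, fitted apart, read 150.2, 188 and 157 in NFFSE and 3.04, 7.59 and 8.03 in NFFS, at least 7.24-fold higher because all NFFS arrays were at background (adjusted p = 0.00012, limma). Cnfn, a small envelope protein encoded outside the chromosome 3 cluster, gave 293, 356 and 300.4 in NFFSE and 74.2, 83.3 and 62.9 in NFFS, and rose 4.32-fold with EGF (adjusted p = 8.2e-05, limma). Lor, the main protein of the mature envelope by mass, gave 157, 139.6 and 132 in NFFSE and 111, 78.4 and 111 in NFFS. All NFFSE arrays were above the NFFS arrays by a small margin (log2 difference 0.53 ± 0.26, SE; adjusted p = 0.17, limma). Its other probe sets, both dim, disagreed in sign, with log2 differences of -1.32 and 2.17 (adjusted p of 0.15 and 0.16, limma).

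The S100-fused type genes, which encode filaggrin and its large relatives of the granular layer, were dim in both media and none was called. Flg, the precursor of the keratin-bundling protein filaggrin, had signals of 41.3, 31.7 and 50.9 in NFFSE and 97.7, 39.8 and 52.1 in NFFS, with overlap, and the log2 difference was -0.53 with an SE of 0.44 (adjusted p = 0.44, limma). Hrnr was at background on all 6 arrays, so that its log2 difference of -1.96 has no fold (adjusted p = 0.21, limma). Rptn, at 0.48, overlapped between media (adjusted p = 0.51, limma). Of these 3 genes, the highest signal of a single array was 97.7, that of Flg in NFFS replicate 1. The family's median log2 difference was -0.53.

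The transglutaminases, which cross-link the envelope, changed in opposite directions. Tgm1, the membrane-bound enzyme of the granular layer whose loss causes lamellar ichthyosis, gave 270.1, 332 and 244 in NFFSE and 50.9, 56.0 and 38.6 in NFFS. The arrays of the media were widely apart, and the increase was 5.84-fold (log2 difference 2.54 ± 0.27, SE; adjusted p = 7.6e-05, limma). Tgm3, an enzyme of late epidermal differentiation and of the hair follicle, gave 179, 167 and 120.1 in NFFSE and 79.3, 76.6 and 54.6 in NFFS, and was 2.21-fold higher (adjusted p = 0.015, limma). In Tgm3 the third replicate was the lowest of each medium, and the call was lost without NFFSE replicate 1 or 2 (adjusted p of 0.062 and 0.062, limma). Its second probe set had a log2 difference of 0.47 and did not pass (adjusted p = 0.35, limma), with overlapping arrays. Tgm5, an enzyme of the upper epidermal layers whose loss causes skin peeling, gave 207, 263 and 375 in NFFSE and 706, 429 and 496 in NFFS. All NFFS arrays were higher, and the log2 difference was -0.96 with an SE of 0.25 (adjusted p = 0.016, limma), 1.94-fold lower in NFFSE. This call was lost, like that of Tgm3, when single arrays were left out: it did not hold without NFFSE replicate 1, NFFSE replicate 2 or NFFS replicate 1 (adjusted p of 0.060, 0.059 and 0.067, limma) and without the intensity trend (adjusted p = 0.088, limma).

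The scaffold genes differed by less. Ppl, periplakin, had signals of 677, 639 and 616 in NFFSE and 457, 392 and 355 in NFFS, and was 1.61-fold higher (adjusted p = 0.0050, limma). Evpl, envoplakin, its partner, had signals of 573, 672 and 576 in NFFSE and 449.6, 390.1 and 324 in NFFS, and was 1.58-fold higher (adjusted p = 0.012, limma). In neither gene did the media overlap, and the call of Evpl was lost without NFFSE replicate 2 (adjusted p = 0.063, limma). Cdsn, the adhesive protein of corneodesmosomes, overlapped between media with a log2 difference of 0.32 (adjusted p = 0.56, limma). Of the proteases, Asprv1, which cleaves profilaggrin, gave 1078, 847 and 608 in NFFSE and 559, 369 and 358 in NFFS. This was a 1.96-fold increase (adjusted p = 0.011, limma) with a gap between the media that was small beside the spread of either, and it was not called without the intensity trend (adjusted p = 0.080, limma). Casp14, the caspase of cornification, did not pass on either of its probe sets, with log2 differences of 0.36 and 1.02 (adjusted p of 0.30 and 0.17, limma).

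The secreted proteins of the suprabasal layers were higher in NFFSE in 3 of 3 cases, and their genes Sbsn, Dmkn and Krtdap neighbor each other on chromosome 7. Krtdap, keratinocyte differentiation-associated protein, gave 19605, 21366 and 21838 in NFFSE and 6771, 8559.8 and 3859 in NFFS, and was 3.45-fold higher (adjusted p = 0.00035, limma). Dmkn, dermokine, gave 21684, 23460.5 and 25377 in NFFSE and 7694, 10734 and 6051 in NFFS, and was 2.96-fold higher (adjusted p = 0.00015, limma). Sbsn, suprabasin, gave 7004, 6929 and 6924 in NFFSE and 3228, 4021 and 2723 in NFFS, and was 2.12-fold higher (adjusted p = 0.00025, limma). In all 3 genes NFFS replicate 3 was the lowest array and NFFS replicate 2 the highest of the EGF-free medium, and no array of NFFS reached one of NFFSE. Calm4, a calmodulin-like calcium-binding protein of keratinocytes, followed the same order in NFFS with 9497, 12425 and 9526 in NFFSE and 4888, 6935 and 3513 in NFFS, and was 2.11-fold higher (adjusted p = 0.0043, limma), a call that was lost without the intensity trend (adjusted p = 0.058, limma). Hopx, an atypical homeodomain protein found both in differentiating keratinocytes and in hair follicle stem cells, had signals of 1407, 1623 and 1734 in NFFSE and 1092, 1182 and 796 in NFFS. The increase of 1.57-fold (adjusted p = 0.012, limma) was the smallest among the called genes, was lost without NFFSE replicate 2 or 3 (adjusted p of 0.052 and 0.052, limma), and was not seen as a call on a second probe set with a log2 difference of 0.36 (adjusted p = 0.19, limma).

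The calls were also read along chromosome 3. Of the 29 members there, 14 were higher, 0 were lower and 15 did not pass, with a median log2 difference of 1.20, and of the 14 encoded elsewhere, 11 were higher, 1 was lower and 2 did not pass, with a median of 1.02. In map order, Lor at one end was not called, the Sprr genes and Ivl followed with 8 calls in 10, the Lce1 genes next to Ivl held 1 call in 10, the Lce3 genes 4 in 4, and after Lce1m the run of Flg, Hrnr and Rptn held none. All 12 members that were dim in both media lie on chromosome 3. Of 6 other genes measured between Lor and Rptn, Prr9, a proline-rich protein gene, gave 83.6, 208 and 215 in NFFSE and 12.5, 41.1 and 27.6 in NFFS, at least 5.26-fold higher in NFFSE (adjusted p = 0.0039, limma). Crct1, the cysteine-rich C-terminal 1 gene, gave 901, 1024 and 1241 in NFFSE and 457, 344 and 480.2 in NFFS, and was 2.48-fold higher (adjusted p = 0.00031, limma). Lelp1, a late cornified envelope-like gene, went the other way with 8.35, 6.70 and 13.3 in NFFSE and 30.6, 39.7 and 36.5 in NFFS, at least 1.56-fold lower in NFFSE, where all arrays were at background (adjusted p = 0.023, limma). Kprp, Smcp and 2310050C09Rik did not pass.

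**Figure D3:**
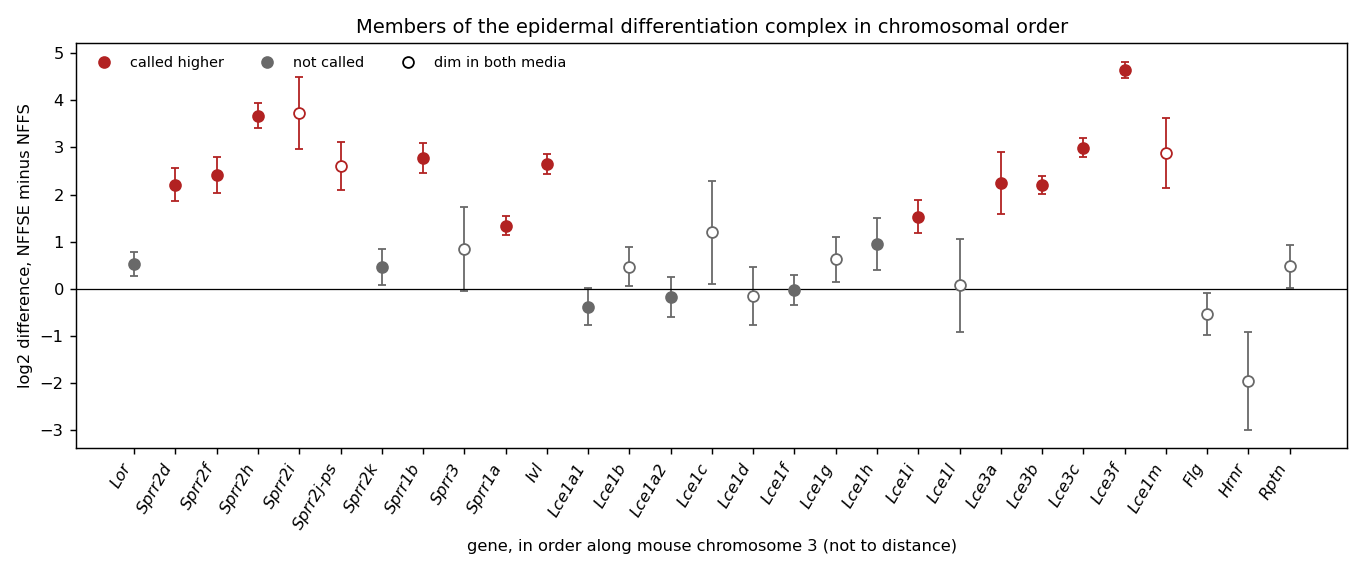
Log2 difference, NFFSE minus NFFS, with its SE (vertical axis) of the 29 members on mouse chromosome 3 in map order, not to distance; red marks genes called higher, grey those not called, and open symbols genes dim in both media. Of the 10 genes from Sprr2d to Ivl, 8 are red and Sprr2k and Sprr3 are not, all 4 Lce3 genes are red, and mostly uncalled Lce1 genes lie between them.

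Read probe set by probe set, 28 of the members' 55 probe sets were higher, 1 was lower and 26 did not pass, where 9.26% of all one-symbol probe sets were higher and 14.3% lower. Several probe sets were present for 9 members, and in 5 of them all had the same sign. Ivl and Sbsn were called on every probe set they had. Sbsn gave log2 differences of 1.08, 1.13 and 1.35. Probe sets whose names end in _s_at or _x_at, which can bind more than 1 transcript, were read for 9 members, among them the called genes Sprr2h, Lce1m, Lce1i, Lce3b and Lce3c. The genes with no probe set listed for them alone were Flg2, Lce1e, Lce1j, Lce1k, Lce3d, Lce3e, Lce6a, Sprr2a1, Sprr2a2, Sprr2a3, Sprr2b, Sprr2c-ps, Sprr2e, Sprr2g and Sprr4, and they were not analysed by name.

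**Figure D4:**
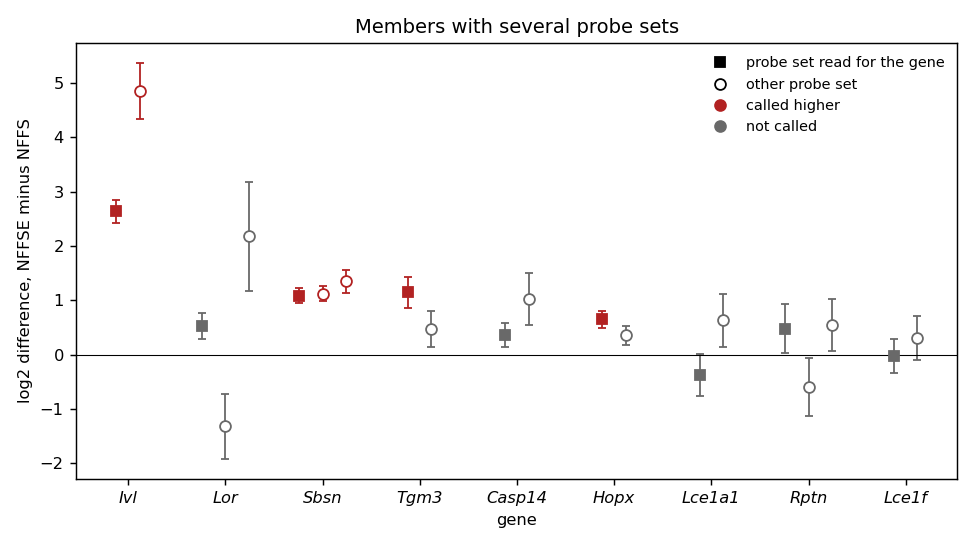
Log2 difference, NFFSE minus NFFS, with its SE (vertical axis) of each probe set of the 9 members that have several; squares are the probe set read for the gene, circles the others, and red marks a call. Both probe sets of Ivl and all of Sbsn are red, and those of Lor and Rptn fall on both sides of 0.

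Same-numbered cultures were taken as pairs. Since the media did not overlap for any of the 25 genes called higher, the sign within pairs was fixed, and only the sizes are given. The difference was largest in pair 3 for 15 of the 25, in pair 2 for 7 and in pair 1 for 3. Matching counts over all genes called higher were not taken, so this order is not shown to be particular to the members. For Sprr1b the paired log2 differences were 2.33, 2.26 and 3.74, for Krtdap 1.53, 1.32 and 2.50 and for Lce3f 4.62, 4.64 and 4.66. NFFS replicate 3 was the lowest array of its medium for 15 of the 25 genes, and for 47.1% of all genes called higher, and NFFSE replicate 1 was the lowest of its medium for 15 of the 25, and for 36.3% of all genes called higher. Without NFFS replicate 3 the members called higher numbered 24 of 43, with Lce3a lost.

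Other genes of epidermal differentiation, listed apart from the members, are given for comparison. Their counts, and those of the marker lists, stand beside 11.0% of all genes called higher and 15.2% called lower. Of 9 suprabasal keratin and desmosome genes, 4 were higher, 0 lower and 5 not called, with a median log2 difference of 0.61. Krt10, the keratin of the first suprabasal layers, gave 15719.9, 15256 and 12183 in NFFSE and 2698, 2469 and 1162 in NFFS and was 7.23-fold higher (adjusted p = 4.4e-05, limma). Dsg1b and Pkp1, desmosome genes, were 2.07-fold and 1.86-fold higher (adjusted p of 0.00060 and 0.00049, limma). Of 13 proteases and inhibitors that act on the horny layer, 12 were measured, of which 6 were higher, 3 lower and 3 not called, with a median of 0.74. Spink5, an inhibitor of kallikreins, gave 2581, 2221 and 2100.4 in NFFSE and 284, 250.3 and 103 in NFFS, and was 11.8-fold higher (adjusted p = 3.1e-05, limma). The kallikrein Klk13 was 9.17-fold higher (adjusted p = 6.6e-06, limma). Cst6, an inhibitor of cysteine proteases, was 2.69-fold lower (adjusted p = 2.9e-05, limma).

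Of 14 regulators of epidermal differentiation, 12 were measured, of which 6 were higher, 2 lower and 4 not called, with a median log2 difference of 0.56. Ovol1, a zinc finger repressor of suprabasal cells, gave 6044, 6702 and 5447 in NFFSE and 523, 525 and 298 in NFFS, and was 13.9-fold higher (adjusted p = 1.5e-06, limma). The barrier regulators Grhl3 and Klf4 were 4.66-fold and 4.37-fold higher (adjusted p of 1.9e-05 and 2.1e-05, limma). Of 12 genes of barrier lipids, 11 were measured, of which 5 were higher, 1 lower and 5 not called, with a median of 0.66. Cers3, the ceramide synthase of ultra-long acyl chains, gave 1307, 1209 and 1196 in NFFSE and 115, 109.7 and 88.2 in NFFS, and was 11.9-fold higher (adjusted p = 5.7e-07, limma), and Abhd5 and Elovl4 were 2.95-fold and 2.44-fold higher (adjusted p of 6.5e-05 and 8.3e-05, limma). Of 12 S100 genes of the same chromosomal cluster, 11 were measured, of which 7 were higher, 1 lower and 3 not called, with a median of 0.90. S100a8, a subunit of calprotectin, gave 12105, 9395 and 9529.9 in NFFSE and 122, 352 and 62.2 in NFFS and was 74.1-fold higher (adjusted p = 1.3e-05, limma). S100a9, its partner, was at least 77.6-fold higher and S100a4 10.8-fold higher (adjusted p of 7.8e-06 and 0.00020, limma). The probe sets read for S100a8 and S100a1 are of the kind that may bind several transcripts. The calls in the lower direction over these lists were Klk5, Klk7 and Cst6 among the proteases and inhibitors, Prdm1 (5.61-fold lower, adjusted p = 8.9e-05, limma) and Gata3 among the regulators, Smpd1 among the lipid genes and S100a1 among the S100 genes, and these names complete the counts.

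The label of the cells was checked on markers, and none of the keratinocyte markers was at background on any array. Of 10 keratinocyte and follicle markers, 5 were higher in NFFSE (Cd34, Itgb4, Itga6, Krt14 and Epcam) and 2 lower (Krt15 and Sox9). The summed signal of the 10 ran from 121828 to 141700 in NFFSE and from 111583 to 125933 in NFFS. Of 8 fibroblast markers, 0 were higher and 3 lower, with sums of 487 to 502 against 691 to 906. No marker of melanocytes (6 genes, sums of 355 to 559 against 431 to 567), leukocytes (6 genes, 390.0 to 549.7 against 435 to 478) or endothelium (5 genes, 217 to 265 against 175 to 250.2) was called, and Mlana, Cd3e and Vwf were at background on all arrays. Of 5 sebocyte markers, 2 were higher (Scd1 and Plin2), with sums of 8095 to 8702 against 4935 to 6801, and Pparg was at background on 5 of 6 arrays. The median signal over all probe sets was 56.5 to 65.0 on the NFFSE arrays and 66.5 to 70.6 on the NFFS arrays. The log2 signal of the 3′ minus the 5′ control probe set of Gapdh, a sign of RNA integrity, was -0.38 to -0.36 in NFFSE and -0.63 to -0.60 in NFFS. The same measure for Actb overlapped between the media, with 0.26 to 0.29 in NFFSE and 0.26 to 0.37 in NFFS. The part of these shifts in the members' differences was not tested.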

How the data were processed

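Total RNA of the 6 cultures was hybridized to an Affymetrix mouse genome array. The deposited intensity values are signals on a linear scale that the authors made with MAS5 (its version was not given), scaled to the same mean over each array without the lowest and highest 2% of probe sets. No scanner files were used. Of 45101 probe sets, 64 controls were left out, 1 gene symbol was listed for 34945, several for 932 and none for 9160. Each of 18193 genes was read from the one-symbol probe set with the highest mean log2 signal. The log2 signals were compared with limma 3.58.1 in R 4.3.3 (eBayes with an intensity trend, without using the pairs), and p-values were adjusted by the Benjamini-Hochberg method across the whole table, with calls at 0.05. Folds are antilogs of log2 differences. The number of arrays limits the precision.

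Background was the highest of 18 TrpnX control values (22.7). For genes with background arrays in the lower medium, the fold is a bound, the brighter mean against the higher of 22.7 and each array's signal (means of log2 values). Every called member, with Ivl, Lor, Flg, Tgm1, Tgm3 and Tgm5, is named with values, the others by family, and from each further list the 3 genes with the smallest p. Other names were given to complete a count. Members and lists were chosen with earlier results of these data known. All 43 symbols matched the RefSeq gene table of GRCm38.p6. For 4 genes with several promoter windows the first was used. Treating same-numbered cultures as pairs assumes that each repeat's cells were split between NFFSE and NFFS. The sample titles only number the replicates, and the paper's methods do not describe such a split. Same-numbered arrays deviated together from the means of their media (r of 0.28, 0.13 and 0.15 over 10916 genes). The reason for this was not tested. Alternatives covered scaling (array medians, quantile), a floor at the background, 16 added to the signals, a filter on dim genes, the mean over probe sets, no intensity trend, the methods' t-test, the replicate block, each array left out in turn and, chosen after seeing the data, each probe set on its own.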

Additional observations from a re-analysis of the deposited data

Results flagged for a closer look

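A signal appeared in a probe set outside the comparisons, which is shared by Sprr2a1 and Sprr2a2, Sprr2 genes with no probe set listed for them alone. It read 529, 2012 and 2473 in NFFSE and 141, 285 and 158 in NFFS, a log2 difference of 2.899 with every NFFSE array above every NFFS array and no control level for comparison but the medium without EGF. A second probe set, listed also with Sprr2a3, read 558, 2105 and 2385 in NFFSE and 416, 566 and 394 in NFFS, with NFFSE replicate 1 within the range of NFFS (log2 difference 1.64). The last one was dim, with overlap (-0.41). These probe sets name no single gene and were not tested.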

How the results depend on the processing

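The 6 arrays limit which small differences can be called, and signals near the background have no reliable order. The members called higher numbered 25 by the settings of the report and also with either other scaling, 16 added to the signals or the replicate block, and no setting added a gene. They numbered 19 with a floor at the background (without Sprr2i, Lce1m, Lce3a, Asprv1, Calm4 and Hopx), 20 without the intensity trend (without Lce3a, Evpl, Asprv1, Calm4 and Hopx), 17 by the methods' t-test (also without Sprr1a, Lce1i and Tgm3), 23 with the mean over probe sets (without Tgm3 and Hopx), 22 of 31 tested with the filter on dim genes, and 20 to 25 without 1 array, with 20 without NFFSE replicate 2 (Evpl, Hopx, Lce1m, Lce3a and Tgm3 lost). The members called lower numbered 0 with the floor, without the trend and by the t-test (1, 2 and 2 at an unadjusted p under 0.05), and 0 to 1 without 1 array. The replicate block kept the same 25 and 1 calls. The median log2 difference was 1.28 with arrays centered on their medians, 0.90 with the floor, 0.90 with 16 added and 0.86 to 1.22 without 1 array.

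The sign turned only for genes not called: Lce1a1 was 0.13 with the mean over probe sets, Lce1a2 0.033 with centered arrays and 0.029 with quantile normalization, Lce1d 0.049 and 0.027, and Lce1f 0.18, 0.19 and, with the mean over probe sets, 0.14. On their other probe sets Lce1a1 was 0.64, Lce1f 0.30, Lor -1.32 and Rptn -0.59. Without 1 array, Lce1a2 ranged from -0.59 to 0.23, Lce1d from -0.55 to 0.30, Lce1f from -0.36 to 0.17, Lce1l from -0.70 to 0.79 and Cdsn from -0.025 to 0.52. Over all genes, 2002 were higher and 2771 lower, against 1323 higher without the trend, 1262 and 1702 by the t-test and 1784 lower with centered arrays. The causes were not tested.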
